A study of Mus musculus with 6 samples.

Results

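The trophoblast lineage genes described here were Cdx2, Elf5, Tfap2c, Tfap2a, Gata3, Hand1, Ascl2, Tead4, Krt8 and Krt18, 10 of the 21938 protein-coding genes of the GENCODE vM21 annotation of mm10. They were chosen by name, and every DPPA4 peak within 50 kb of each gene body was collected. Merging peaks that shared at least 1 bp gave 116 regions near these genes, of 99695 regions on chromosomes 1 to 19, X and Y. The regions came from 112 peaks of cells negative for a MERVL-GFP reporter and 41 peaks of cells positive for it.

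DPPA4 was profiled by CUT&RUN, in which a nuclease tethered by an antibody cuts out the DNA around a protein for sequencing. All 6 samples came from a single engineered mouse embryonic stem cell (ESC) line of BL6/129 hybrid background, named EHMT2-dTAG-mcherry-mervl-gfp, grown in FBS and LIF. In this line the histone methyltransferase EHMT2, which deposits H3K9me2, is fused to a dTAG degradation tag. GFP under the MERVL retroviral promoter marks 2-cell-like cells (2CLCs). Per the labels, every sample was treated with dTAG for 72 h, so GFP-negative ESCs and GFP-positive 2CLCs alike were exposed to EHMT2 degradation, and no sample without dTAG was among them. Live cells were sorted into the GFP- and the GFP+ population. There were 2 DPPA4 libraries of each population, 1 IgG library each of GFP-negative and of bulk cells, and the IgG libraries were not used here. The deposited lists hold peaks alone, so the identity of the sorted cells could not be checked against marker expression.

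Each population was represented by 1 peak list that pooled its 2 DPPA4 libraries. The values below therefore carry no replicate error, and differences between the lists were not tested. The GFP-negative list held 83602 peaks on chromosomes 1 to 19, X and Y and the GFP-positive list 54642. How many reads entered each list is unknown, and deeper sequencing alone can lengthen a peak list. A gene or site without a peak is one where no peak reached a −log10 q of 1.3, not one shown to be free of DPPA4.

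The trophectoderm is the outer epithelium of the blastocyst and gives rise to the trophoblast of the placenta. TEAD4, a DNA-binding partner of the Hippo pathway co-activator YAP, acts upstream of CDX2 and GATA3, transcription factors that establish the lineage, while TFAP2C and ELF5 act with them in trophoblast stem cells. HAND1 and ASCL2 act in differentiating trophoblast, and keratins 8 and 18 pair in the filaments of simple epithelia such as the trophectoderm. Mouse ESCs do not normally contribute to this lineage. DPPA4 binds DNA together with its partner DPPA2 and is known to occupy CpG-rich promoters of developmental genes in ESCs.

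The sequences below are shown because they lie at the summits, the points of highest signal, of the regions on which the results turn. Each is the 101-bp window of the mm10 plus strand around a summit, with CpG dinucleotides in capitals. In order, they are the Tfap2c region of highest −log10 q among those with GFP-negative peaks alone (chr2:172577286-172577386, intergenic), the common region upstream of Tfap2c (chr2:172547243-172547343, intergenic), the common region upstream of an internal Gata3 start site (chr2:9879605-9879705, in an intron of longer Gata3 transcripts), the Cdx2 intron (chr5:147304992-147305092), the Tead4 intron (chr6:128296467-128296567), the Elf5 intron (chr2:103439839-103439939), and the region upstream of Tfap2a with a GFP-positive peak alone (chr13:40740222-40740322, intergenic).
Tfap2c downstream: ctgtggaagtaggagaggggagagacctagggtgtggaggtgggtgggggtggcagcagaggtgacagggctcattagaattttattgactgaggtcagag
Tfap2c promoter: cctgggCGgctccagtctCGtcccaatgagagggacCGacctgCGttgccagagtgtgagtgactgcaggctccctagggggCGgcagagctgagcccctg
Gata3 promoter: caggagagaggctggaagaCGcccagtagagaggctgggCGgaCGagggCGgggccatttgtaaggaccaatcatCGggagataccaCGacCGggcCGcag
Cdx2 intron: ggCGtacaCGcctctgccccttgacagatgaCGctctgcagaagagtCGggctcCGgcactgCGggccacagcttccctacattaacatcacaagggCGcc
Tead4 intron: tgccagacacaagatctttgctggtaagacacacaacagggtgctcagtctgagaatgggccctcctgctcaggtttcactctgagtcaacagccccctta
Elf5 intron: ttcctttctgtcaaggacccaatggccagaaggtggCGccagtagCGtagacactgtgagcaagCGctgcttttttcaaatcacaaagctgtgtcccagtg
Tfap2a upstream: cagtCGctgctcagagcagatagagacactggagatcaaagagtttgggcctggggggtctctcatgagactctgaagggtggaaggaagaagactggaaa
The windows of the Tfap2c and Gata3 promoters, which had peaks in both lists, held 5 and 8 CpGs. The downstream Tfap2c and Tead4 intron windows, with peaks in the GFP-negative list alone, held 0 CpGs each. The Cdx2 intron, also with a GFP-negative peak alone, held 7, so the CpG number did not separate the classes window by window. The Elf5 intron held 3 and the Tfap2a upstream window 1.

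To ask whether DPPA4 occupancy of these genes differed between the populations, each region was assigned to a class. Regions with peaks from both lists were called common, those with GFP-negative peaks alone GFP-negative-only, and those with GFP-positive peaks alone GFP-positive-only. Near the 10 genes most regions were GFP-negative-only and few were GFP-positive-only. Of the 116 regions, 77 were GFP-negative-only (66.4%, Wilson 95% interval 57.4 to 74.3), 33 were common (28.4%, 21.0 to 37.2) and 6 were GFP-positive-only (5.17%, 2.39 to 10.8). Over all regions these shares were 46.7%, 35.0% and 18.4%. The intervals reflect counting error alone and take neighbouring regions as independent of each other. The peaks near the genes made up 0.134% of the GFP-negative and 0.0750% of the GFP-positive list. These shares divide by the length of each list alone, and depth and the make-up of the lists were not taken into account.

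**Figure D1:**
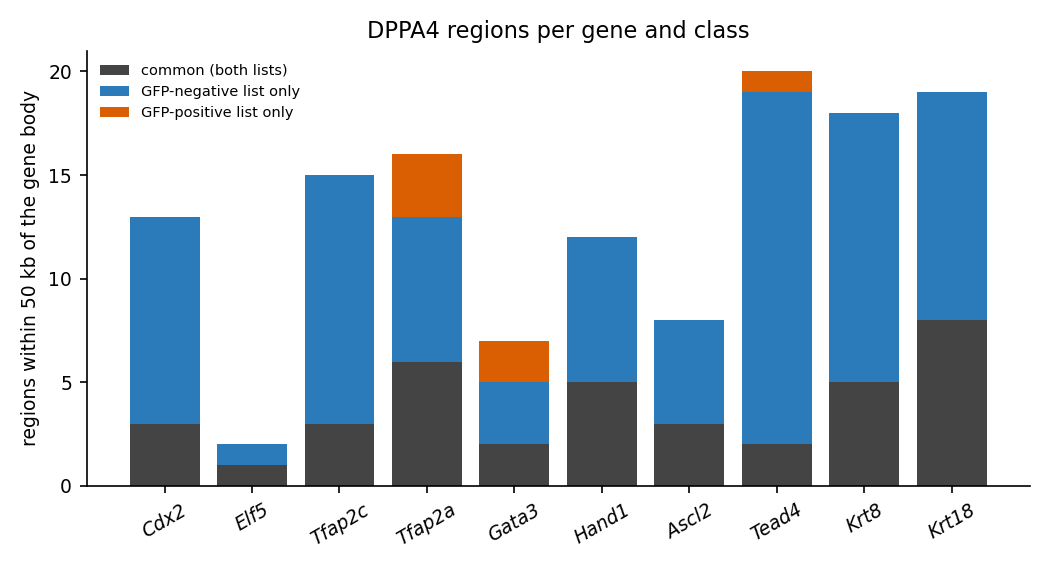
Number of DPPA4 regions within 50 kb of each gene body (y axis) for the 10 trophoblast lineage genes (x axis), stacked by class. GFP-negative-only regions (blue) outnumber GFP-positive-only regions (orange) at every gene, and orange segments appear at Tfap2a, Gata3 and Tead4.

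Gene by gene, more GFP-negative-only than GFP-positive-only regions lay near 10 of 10 genes, against 62.1% of all protein-coding genes. The same held for 10 of 11 further trophectoderm and trophoblast stem cell regulators and 8 of 9 paralogs of these genes. It held for 7 of 9 Hippo pathway genes, 5 of 6 genes of keratins and adhesion and 6 of 11 markers of differentiated trophoblast. The balance was thus not particular to the 10 genes. More GFP-negative-only than common regions lay near 9 of 10, all but Elf5, against 39.2% of all genes. At least 1 GFP-positive-only region lay near 3 of 10 (Tfap2a, Gata3 and Tead4), against 59.9% of all genes. The median number of regions per gene was 14 (range 2 to 20) for these genes and 8 over all protein-coding genes. The surplus lay in the GFP-negative-only class, with medians of 8.5 and 3, while common regions had a median of 3 in either set. In the further gene lists the GFP-negative-only median ran from 2 (paralogs and differentiated trophoblast) to 13 (Hippo pathway). Krt8 and Krt18 are neighbours, and 14 regions lay in both of their windows. With the GFP-negative list shortened to its 54642 strongest peaks, the length of the GFP-positive list, 8 of 10 genes still had more GFP-negative-only than GFP-positive-only regions, against 37.4% of all genes, and Tfap2a and Gata3 had fewer.

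**Figure D2:**
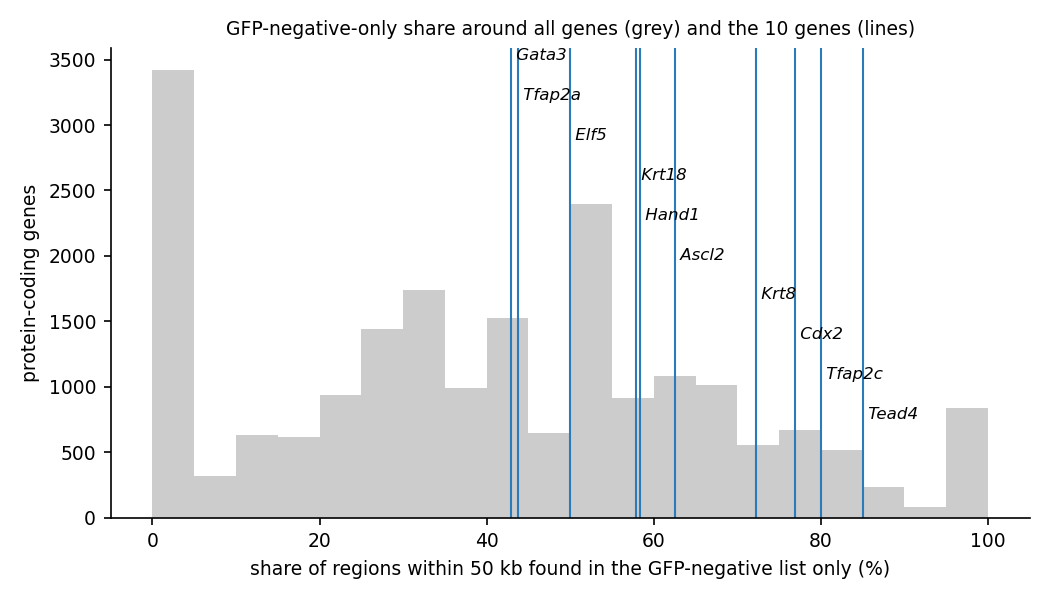
Share of the regions within 50 kb of a gene that were GFP-negative-only (x axis, percent, bins of 5 percentage points), with the number of protein-coding genes on the y axis in grey and each trophoblast lineage gene as a line. The 10 lines lie between 42.9% (Gata3) and 85.0% (Tead4), while the median was 40.0% over genes with a region, and genes without a region are left out.

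Promoter and distal regions of the genes were then set side by side. The promoter window ran from 2.5 kb before to 0.5 kb after each annotated start site of a gene, and regions with their summit outside it were called distal. Of the 17 promoter regions of these genes, 9 were common (52.9%, 31 to 73.8), 7 GFP-negative-only (41.2%, 21.6 to 64.0) and 1 GFP-positive-only. Over all regions at a promoter, 56.1% were common and 32.7% GFP-negative-only, both within the intervals of these genes. Of the 99 distal regions, 24 were common (24.2%, 16.9 to 33.5), 70 GFP-negative-only (70.7%, 61.1 to 78.8) and 5 GFP-positive-only. Among the 82 distal regions that lay at no promoter of any gene, 64 (78.0%, 67.9 to 85.6) were GFP-negative-only, against 52.3% of all regions at no promoter. Of the same 82, 15 were common (18.3%, 11.4 to 28.0) and 3 GFP-positive-only (3.66%, 1.25 to 10.2). Over all regions at no promoter these shares were 26.5% and 21.2%, and the first lay within the interval of these genes. The other 17 distal regions lay at the promoter of another gene, and 9 of them were common. Among strong peaks few regions were left, and the order of these shares varied with the limit. At a −log10 q of at least 5, 3 of 8 promoter regions (37.5%) and 11 of 40 distal regions (27.5%) were common. At a −log10 q of at least 10 these were 1 of 5 (20%) and 5 of 20 (25%). In the 10000 strongest peaks of each list they were 1 of 3 and 3 of 9 (33.3% each). A region common in the full lists leaves that class once either of its peaks falls below the limit.

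**Figure D3:**
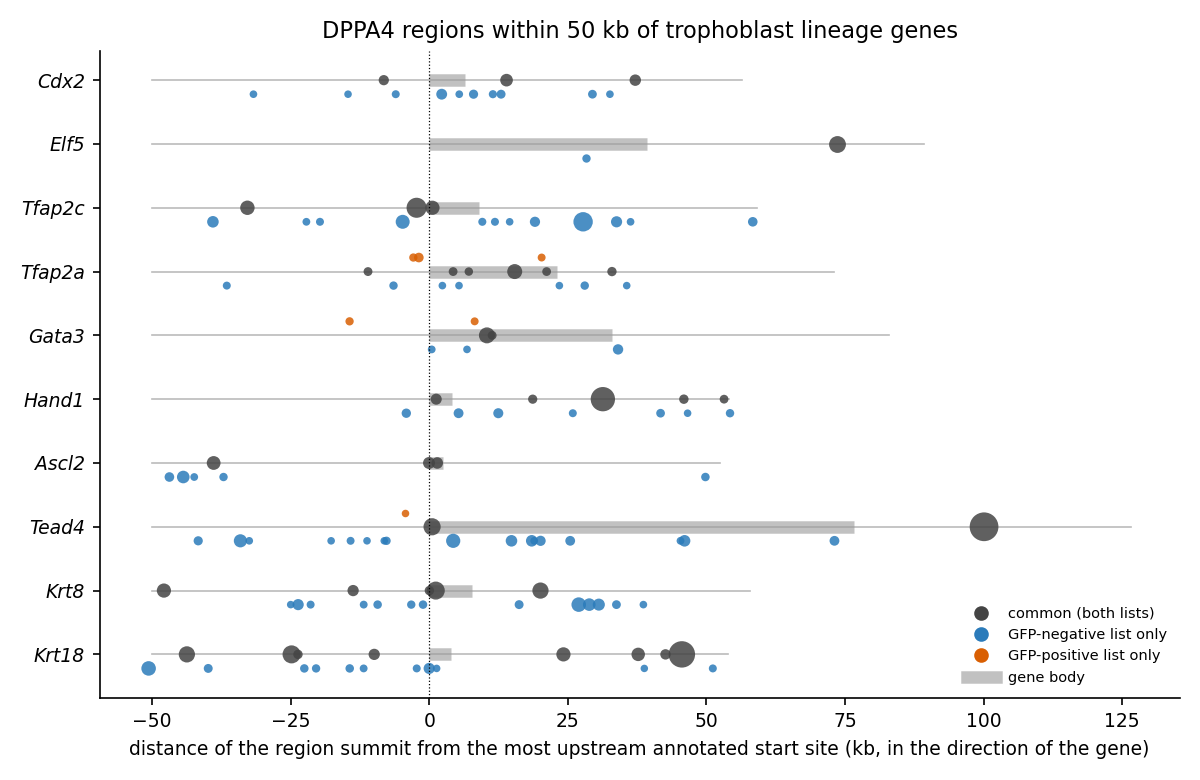
Distance of each region summit from the most upstream annotated start site (x axis, kb, in the direction of the gene) for the 10 genes (rows). Colour gives the class, the area of a point grows with the higher −log10 q of its region, thick bars are gene bodies, and regions in the windows of both Krt8 and Krt18 appear in each row.

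A promoter summit was found at 7 of 10 genes in the GFP-negative list, against 67.8% of all genes, and at 5 of 10 in the GFP-positive list, against 59.3%. The 5 genes with a promoter summit in both lists, against 57.0% of all genes, were Tfap2c, Tfap2a, Gata3, Ascl2 and Krt8. Tead4 and Krt18 had a promoter summit in the GFP-negative list alone, 2 of 10 against 10.8% of all genes. No gene of the 10 had it in the GFP-positive list alone, which held for 2.32% of all genes. Cdx2, Elf5 and Hand1 had none, 3 of 10 against 29.9%. With 10 genes these counts lie close to the background. When any base of a peak in the promoter window was enough, the numbers were 9 of 10 and 7 of 10, against 70.0% and 61.9% of all genes. The added genes came from broad peaks at Cdx2, Hand1 and Tead4 that covered the start with their summits farther into the gene.

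Among the transcription factors that establish the lineage, Cdx2 (ENSMUSG00000029646.3, chr5:147300805-147307270, minus strand) had 13 regions. Of these 10 were GFP-negative-only, 3 common and 0 GFP-positive-only, a GFP-negative-only share of 76.9% that equalled or exceeded that of 91.0% of genes. Within the gene itself, peaks were called in GFP-negative cells alone. A GFP-negative-only region 3297 bp wide (chr5:147304150-147307446) covered the start site, with its summit 2228 bp into the gene, in the intron printed above. Its fold enrichment, the signal at the summit over the local background estimated by the peak caller, was 6.48, and its −log10 q of 7.84 ranked at the 70.3rd percentile of the GFP-negative list. The 3 common regions flanked the gene. The one 13.9 kb downstream of the start had fold enrichments of 8.38 (GFP-negative) and 5.16 (GFP-positive), and the one 8.2 kb upstream had 5.94 and 3.51. The last lay 37.2 kb downstream at the promoter of Pdx1, a homeobox gene of the pancreas, with 6.24 and 5.30. Occupancy in both lists was thus found beside Cdx2 and not within it.

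Elf5 (ENSMUSG00000027186.14, chr2:103411688-103450989, plus strand), an ETS factor that sustains trophoblast stem cells, had 2 regions, the fewest of the 10 genes. Neither lay at its promoter. The intronic region (chr2:103439808-103439955) was 148 bp wide and GFP-negative-only, with a fold enrichment of 3.82 and a −log10 q of 2.77 at the 37.7th percentile. The common region lay 73.5 kb from the first start site, at the promoter of Cat, the gene of catalase, with fold enrichments of 12.9 and 6.40. The strong occupancy near Elf5 was therefore at a neighbouring gene. RefSeq promoter sequences of GRCm38.p6, from 250 bp before to 50 bp after a start, held 3 CpGs at the upstream Elf5 start and 10 at the other, against a median of 7 over all promoters.

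Tfap2c (ENSMUSG00000028640.11, chr2:172549593-172558622, plus strand), which encodes AP-2γ, had 15 regions, of which 12 were GFP-negative-only, 3 common and 0 GFP-positive-only. Its promoter was occupied in both lists, with the higher fold enrichment in GFP-negative cells. The summit 2300 bp upstream fell on the same base in both lists, with fold enrichments of 16.7 and 5.32. The −log10 q was 37.6 (94.9th percentile) in the GFP-negative list against 5.67 (65.7th percentile) in the other. In the second common region, at the start sites, the fold enrichments were 8.79 and 6.21. Its summits differed, 88 bp before a start site in the GFP-negative list and 20 bp past another start site in the GFP-positive list. All 12 GFP-negative-only regions were distal. That 27.7 kb downstream of the first start site (chr2:172576905-172578136) had a fold enrichment of 15.3 and a −log10 q of 34.8, and was the only GFP-negative-only region near the 10 genes within the strongest 10% of its list. A further one, 4.8 kb upstream, had a fold enrichment of 9.74. The common region 32.8 kb upstream had 9.96 in the GFP-negative list against 3.20 in the GFP-positive list, where its −log10 q of 1.54 was near the limit of the list.

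Tfap2a (ENSMUSG00000021359.16, chr13:40715302-40738376, minus strand) encodes AP-2α, a factor of neural crest and trophoblast, and was the gene with the most GFP-positive-only regions of the 10. Its 16 regions comprised 6 common, 7 GFP-negative-only and 3 GFP-positive-only ones. A count of 3 GFP-positive-only regions was the upper quartile over all protein-coding genes, and 18.4% of all regions were of that class. Peaks at the Tfap2a start sites were weak in both lists, with fold enrichments of 3.03 to 3.61 in GFP-negative cells. GFP-positive cells had 3.90 and 3.32 at the common promoter regions and 5.43 in the region printed above, 1896 bp upstream of the nearest start. That region (chr13:40739951-40740474, −log10 q 5.19) was the GFP-positive-only region of highest −log10 q near any of the 10 genes. It was the only one of them at a promoter of these 10 genes. A second GFP-positive-only region lay next to it, 2.9 kb upstream, with a fold enrichment of 4.09. The region of highest −log10 q at this gene was common and lay in the gene body, 15.4 kb from the first start at the promoter of the noncoding gene Gm47061, with fold enrichments of 10.5 and 8.49. A 171-bp GFP-negative-only region 36.5 kb upstream held sequence present in 16 copies (the median count of its 31-base words in the genome), so its reads could have been placed from another copy.

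At Gata3 (ENSMUSG00000015619.10, chr2:9857078-9890034, minus strand), a zinc finger factor of the trophectoderm and of T cells, promoter occupancy was close in the lists. The common region with the summit 1055 bp upstream of a start site in the GFP-negative list and 1038 bp in the GFP-positive list had fold enrichments of 10.6 and 9.38, at the 89.0th and 89.8th percentiles of their lists. The common region at the same start had 4.74 and 4.66. Of its 7 regions, 2 were common, 3 GFP-negative-only and 2 GFP-positive-only, and the GFP-negative-only share of 42.9% was the lowest of the 10 genes. The 5 regions found in a single list were weaker than the main promoter region, with fold enrichments from 3.03 to 5.55. The RefSeq promoter of Gata3 held 22 CpGs and that of Cdx2, where no summit was found, 18.

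Of the factors of differentiating trophoblast, Hand1 (ENSMUSG00000037335.13, chr11:57828705-57832818, minus strand) had 12 regions, 5 common and 7 GFP-negative-only. A broad common region of 4798 bp (chr11:57829267-57834064) covered the first start site and most of the gene body. It joined overlapping peaks, of which the strongest in each list had fold enrichments of 6.34 and 6.01. Its summits lay 539 bp and 599 bp past the nearest start site, an internal one, just beyond the promoter window. The common region of highest −log10 q lay 31.3 kb downstream at the shared promoter of Sap30l and 2010001A14Rik, with 22.9 and 12.4. At 2 further common regions, 18.6 and 45.9 kb downstream, the fold enrichment was higher in the GFP-positive list, at 4.68 against 3.75 and 5.13 against 4.20.

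Ascl2 (ENSMUSG00000009248.6, chr7:142966829-142969264, minus strand), an imprinted gene expressed from the maternal allele in trophoblast, had 8 regions, 3 common and 5 GFP-negative-only. The common promoter region had fold enrichments of 6.99 and 4.51, and a common region inside the gene had 6.63 and 5.47. The third, 38.9 kb upstream at the promoter of the antisense gene Tspan32os, had 7.27 and 7.68. The GFP-negative-only regions lay far from the gene, 4 of them 37.1 to 46.9 kb upstream toward Tspan32 and 1 of them 49.8 kb downstream. Of these, the region 44.4 kb upstream had the highest fold enrichment, 8.33. Occupancy at and within Ascl2 was thus common to both lists.

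Tead4 (ENSMUSG00000030353.15, chr6:128224288-128300823, minus strand) had 20 regions, the most of the 10 genes, in the widest window (176536 bp). Per 100 kb it had 11.3, fewer than 6 of the other genes, among them Krt18 with 18.3 and Krt8 with 16.7. With 17 GFP-negative-only, 2 common and 1 GFP-positive-only regions the GFP-negative-only share was 85.0%, the highest of the 10 genes (Wilson 95% interval 64.0 to 94.8), at the 94.4th percentile of genes. A common region that covered the first start site had fold enrichments of 11.4 and 4.36. Its GFP-negative summit lay 254 bp and its GFP-positive summit 566 bp past the nearest annotated start, which is not the first. The −log10 q of this region was 26.4 for GFP-negative and 4.22 for GFP-positive cells. The second common region, 100.1 kb from the first start at the promoter of Gm10010, had the highest −log10 q near the 10 genes, 82.0 and 29.9. Its fold enrichments were 29.4 and 14.5. GFP-negative-only regions lay along the gene body and upstream of it. The intronic one printed above (chr6:128296090-128297647), 4.3 kb from the start, had a fold enrichment of 9.06 and a −log10 q of 16.6, and one 34.1 kb upstream had 7.86 and 13.6. A further GFP-negative-only region, at an internal start site, had 4.76 and 5.49. The GFP-positive-only region, 4.3 kb upstream, had 2.81 and a −log10 q of 1.41, at the 2.98th percentile of its list.

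The keratin pair Krt8 (ENSMUSG00000049382.10, chr15:101996698-102004482, minus strand) and Krt18 (ENSMUSG00000023043.7, chr15:102028180-102032027, plus strand) had 18 and 19 regions and 0 GFP-positive-only ones. Krt8 had 5 common and 13 GFP-negative-only regions, and Krt18 had 8 and 11. At the Krt8 start the common region was weak, with fold enrichments of 4.97 and 3.89. The stronger common region lay 1.2 kb into the gene, at the promoter of the overlapping gene Gm36026, with 13.1 for GFP-negative and 4.92 for GFP-positive cells, and a −log10 q of 29.5 and 4.82. At Krt18 the promoter had GFP-negative peaks alone. The one 29 bp upstream of the start (chr15:102027849-102028744) had a fold enrichment of 6.09 and a −log10 q of 8.52, and the one 2278 bp upstream had 3.55 and 2.14. The RefSeq promoters of Krt8 and Krt18 held 6 and 17 CpGs. Downstream of Krt8, 3 GFP-negative-only regions 27.0 to 30.6 kb from its start had fold enrichments of 8.11, 7.63 and 5.49. The common region of highest −log10 q near the pair lay at the promoter of the translation factor gene Eif4b, 45.6 kb downstream of Krt18, with 24.9 and 10.8.

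At all 10 genes the region of highest −log10 q was common, which held for 80.7% of all protein-coding genes, with those lacking a region counted as not called. Most common regions had the higher fold enrichment in GFP-negative cells. The median fold enrichment of the 33 common regions was 6.99 for GFP-negative and 5.13 for GFP-positive cells, against 6.48 and 4.97 over all common regions. The value was higher in the GFP-negative list at 28 of 33 regions (84.8%), against 71.7% of all common regions, and the median ratio was 1.33 against 1.25. At promoters it was higher at 8 of 9 and at distal sites at 20 of 24. By percentile of −log10 q within its own list, the GFP-negative peak ranked higher at 6 of 9 promoter regions (66.7%) and 21 of 24 distal ones (87.5%). Over all common regions this share was 66.4%. The 5 regions with a higher fold enrichment in the GFP-positive list lay near Tfap2a, Hand1, Ascl2 and Krt18. Fold enrichment scales with the signal and background of its own libraries, and the part of that in this difference was not tested. Regions of a single list were weak, with a median fold enrichment of 3.79 for the 77 GFP-negative-only regions (3.69 over all regions of that class) and 3.77 for the 6 GFP-positive-only regions (3.55 over all).

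**Figure D4:**
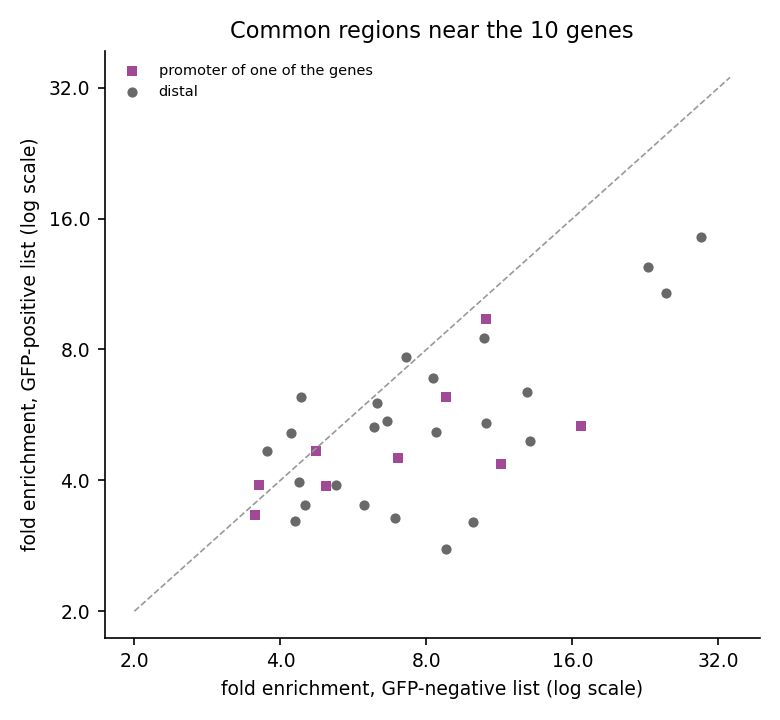
Fold enrichment of the 33 common regions in the GFP-negative list (x axis, log scale) and the GFP-positive list (y axis, log scale), with promoter regions as squares, distal regions as circles and equal values on the dashed line. Below the line lie 28 regions, and the 3 distal regions at the far right are those at the promoters of Sap30l, Eif4b and Gm10010.

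Sequence content followed class much as over the whole series. In the 200 bp around the summit, common regions near the 10 genes had a median GC share of 61.5% and 11 CpGs, GFP-negative-only regions 54.5% and 4, and GFP-positive-only regions 49.0% and 2.5. Over all regions the medians were 60.5% and 10, 52.5% and 3, and 50.5% and 3. Of the 116 summits, 62 were intergenic, 34 in introns, 9 in untranslated regions, 6 in noncoding exons and 5 in coding exons. The RefSeq promoter table matched 7 of 10 genes, and Tfap2c, Hand1 and Tead4 were not matched.

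**Figure D5:**
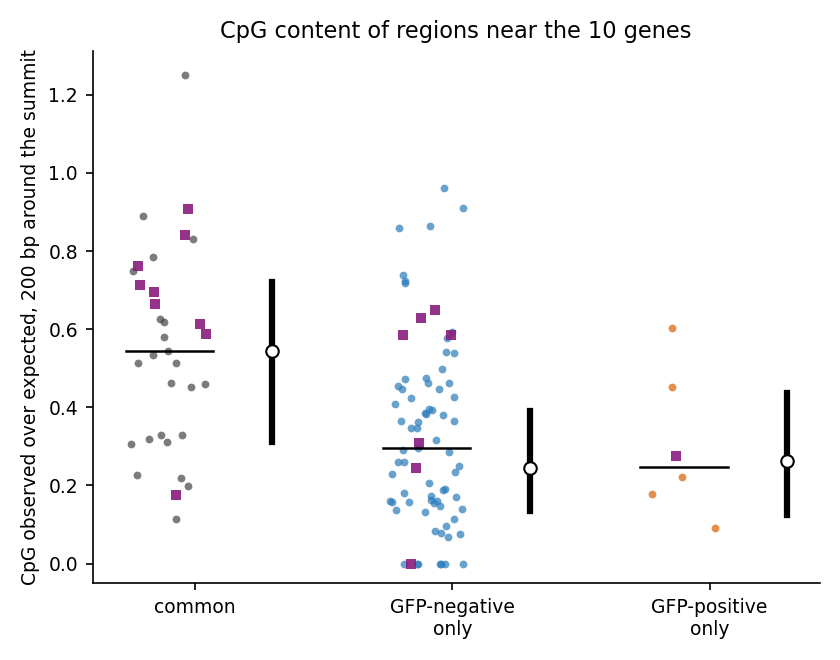
CpG observed over expected in the 200 bp around the summit (y axis) for regions near the 10 genes by class (x axis), with promoter regions as purple squares, other regions as circles, and the median as a line. The white point and thick bar beside each class give the median and quartiles over all regions of that class, and the medians for these genes were 0.543, 0.296 and 0.249 against 0.544, 0.246 and 0.263.

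Repeat content differed by class. Soft-masked bases, which mark repeats, filled at least 50% of the 200-bp window in 0 of 33 common, 5 of 77 GFP-negative-only and 2 of 6 GFP-positive-only regions near the genes, against 24.6%, 11.9% and 44.6% over all regions. The windows of the genes held 21.1% (Elf5) to 35.1% (Krt18) soft-masked bases, below the 36.4% of the genome. Among regions less than 50% soft-masked, GFP-positive-only regions made up 3.67% of 109 near the genes and 13.1% of 77413 over the series, and GFP-negative-only regions 66.1% and 53.0%. The GFP-positive-only share near the genes rests on 4 regions. The part of repeats, gene content and neighbourhood in these shares was not tested.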

How the data were processed

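DPPA4 CUT&RUN peaks of EHMT2-depleted GFP-negative ESCs and GFP-positive 2CLCs were analysed. Per the study's methods and the submitters' processing notes, the authors trimmed reads with bbduk, aligned them with STAR 2.7.10 so that reads matching several places were kept at a single position, removed duplicates with Picard 2.26.0, dropped blacklisted regions of mm10 and called peaks on fragments with MACS2 2.2.6 (SAMtools 1.14 and bedtools 2.30.0 are also named). Whether IgG served as control was not given in the sources used here. Each population has 1 deposited list made from its merged libraries, and groups were taken from sample titles.

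The deposited fold enrichment is the authors' ratio of summit signal to estimated local background. The deposited −log10 q-value and −log10 p-value are the authors' significance of the summit, and the deposited score is derived from the −log10 p. Fold enrichment and −log10 q were used to describe and rank peaks, within each list. A percentile is the share of peaks in the same list with an equal or lower −log10 q, and a percentile of genes is the share of protein-coding genes with an equal or lower value. Genes without a region have no GFP-negative-only share and were left out of its percentiles. Of the per-sample columns, 0 were left unused.

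All peaks used ended within the 21 chromosomes of GRCm38.p6, the assembly behind mm10. Regions, promoters and distances were computed in Python 3.11.15 (numpy 2.4.6, pandas 2.3.3, scipy 1.17.1, matplotlib 3.10.9) with code tested on simulated data. A common region was placed midway between its GFP-negative and GFP-positive summits, and distances between a region and a gene were taken from the most upstream start site unless another start is named. Sequence features were read from the RefSeq genome. Shares carry Wilson 95% intervals. With 1 list per population no test was run, and counts were set beside those over all protein-coding genes. Promoter definition, peak strength, list length, overlap rule, distance, soft-masked summits and the keratin pair were varied. The genes, the further gene lists and the measures were chosen with earlier results of these data known. All 10 genes are named, with their strongest promoter and distal regions, and of each further list those with the most regions and those with none, with other members named for contrast after their values were seen.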

Additional observations from a re-analysis of the deposited data

How the results depend on the processing

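No paired analysis was possible because the libraries of a population were merged in its list, and for the same reason no replicate could be left out. Of 91 alternative values for the counts and shares reported, 69 stayed within 1.5 times of the reported count or within the interval of the reported share and 22 moved. Of 387 alternative values gene by gene, 276 stayed and 111 moved.

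Stricter peak limits lowered the counts. At a −log10 q of at least 5 there were 14 common, 32 GFP-negative-only and 2 GFP-positive-only regions. A promoter summit in the GFP-positive list was then found at 3 of 10 genes, against 43.0% of all genes. At a −log10 q of at least 10 there were 6, 19 and 0, with promoter summits at 4 genes in GFP-negative and 1 in GFP-positive cells. No share over all genes is given at this limit. Then 1 of 5 promoter regions (20%) and 5 of 20 distal ones (25%) were common, the opposite order to that reported but on few regions. In the 10000 strongest peaks of each list there were 4, 6 and 2, and 33.3% of promoter and of distal regions were common. Promoter summits lay at 3 genes in the GFP-negative and 1 gene in the GFP-positive list. Over all genes the shares with a promoter summit were 27.0% and 25.3%. More GFP-negative-only than GFP-positive-only regions were then counted near 5 genes (Elf5, Tfap2c, Tead4, Krt8 and Krt18), against 23.5% of all genes. Fewer lay near Tfap2a and Ascl2. Most of the regions behind these counts were common in the full lists and changed class as the peak of 1 list fell below the cut. Examples are the Elf5 region at the Cat promoter (−log10 q 25.2 and 7.09) and the Tfap2c promoter region (37.6 and 5.67). At a −log10 q of at least 5, with such changes of class again included, more GFP-negative-only regions were counted near 8 genes (59.0% of all genes). Tfap2a had fewer. In lists of equal length Tfap2a and Gata3 had fewer, 42 regions were GFP-negative-only and 35.3% of distal regions common. With summits within 200 bp required for a common region, 16 regions were GFP-positive-only and 16.5% of distal regions common. Within 10 kb there were 18 common and 41 GFP-negative-only regions, and within 100 kb 14 GFP-positive-only ones. By construction, each of these settings admits fewer peaks, a stricter overlap or another window.

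The depth behind the lists is unknown. Weak regions lie near the significance limit, where a peak missing from a list shows only that it was not called.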

Other observations

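The shares over all protein-coding genes were 67.8% with a promoter summit in the GFP-negative list, 59.3% in the GFP-positive list, 10.8% in the GFP-negative list alone and 29.9% in neither, with a median of 8 regions (quartiles 3 and 17). Among 11 markers of differentiated trophoblast, 3 had a promoter summit in GFP-negative cells, 2 had it in GFP-positive cells, and 8 had none (29.9% of all genes). Their median was 3 regions within 50 kb, at the lower quartile of all genes. The placental prolactin genes Prl3d1 and Prl3b1 and the cathepsin gene Ctsq had 0 regions, while Syna, which encodes a syncytin, had 31.

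Of 11 further regulators of trophectoderm and trophoblast stem cells, 9 had a promoter summit in GFP-negative cells and 8 in GFP-positive cells, near the 67.8% and 59.3% of all genes, with a median of 11 regions. Eomes, a T-box factor of trophoblast stem cells, had a promoter summit in the GFP-positive list alone (2.32% of all genes). It had 6 GFP-negative-only, 2 common and 0 GFP-positive-only regions. That promoter summit therefore lay in a common region, whose GFP-negative summit fell outside the promoter window. Fgfr2, the receptor for the FGF signal that sustains trophoblast stem cells, had 188 regions, but its annotated gene body (chr7:130162451-133123350) is very long, which widens the window. Arid3a had 40 regions, of which 27 were common. Esx1 had a single region and no promoter summit.

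In the Hippo pathway all 9 genes had a promoter summit in GFP-positive cells (59.3% of all genes) and 8 in GFP-negative cells (67.8%), Lats1 being the exception. The paralogs Tead3 and Tead2 had 41 and 36 regions, of which 20 and 19 were common, where Tead4 had 2 common regions of 20. Yap1 had 6 GFP-positive-only, 3 GFP-negative-only and 3 common regions, and was the Hippo gene with more GFP-positive-only than GFP-negative-only regions.

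Of 6 genes of keratins and adhesion, 6 had a promoter summit in GFP-negative cells (67.8% of all genes) and 3 in GFP-positive cells (59.3%). Krt7, Krt19 and Lgals3 had it in the GFP-negative list alone (10.8% of all genes). Cdh1, the gene of E-cadherin, had 41 regions, with 15 common, 16 GFP-negative-only and 10 GFP-positive-only. Of 9 paralogs of the trophoblast lineage genes, 5 had no promoter summit in either list (29.9% of all genes). Gata2 had 21 regions against 7 of Gata3, and Tfap2b had 1, a GFP-positive-only region. These counts were not tested between lists, and gene bodies of unlike length have windows of unlike size.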
